A study of Danio rerio with 4 samples.

Results

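Of 33 gene names beginning with cldn in a table of 23236 rows, the 30 with at least 20 counts in total over the libraries are the claudin genes described here. Claudins are membrane proteins that form the strands of tight junctions, the seals between neighbouring epithelial or endothelial cells, and the mix of claudins in a strand sets which ions and solutes pass between the cells. Each epithelium uses its own mix, so that skin, gut, kidney, ear and vessel walls can be told apart by the claudin genes they transcribe. In zebrafish larvae the surface epidermis keeps water and salts in balance with a dilute medium, and enterocytes, myelinating glia and brain vessels each have claudins of their own. Of these, cldnd1a and cldnd1b encode claudin domain proteins, which resemble claudins but are not counted among the classical ones.

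RNA came from whole zebrafish (Danio rerio) of the AB strain at 7 days post fertilisation (dpf), untreated offspring of parents heterozygous for a tubgcp6 mutation. They had been genotyped as tubgcp6 mutants or as siblings, with 2 libraries per group labelled as biological replicates. The product of tubgcp6 belongs to the gamma-tubulin ring complex, from which microtubules grow. The sources used here give neither the lesion, nor the genotypes counted as siblings, nor the number of animals per library. Each p-value therefore weighs a group difference only against the spread between these libraries. That spread was estimated for each gene with the help of the other genes tested. Assigned reads totalled between 14246582 and 20652276 per library, and tubgcp6 itself read 30.1 and 29.2 CPM (counts scaled to library size) in the mutant libraries against 35.3 and 38.9 CPM in the sibling libraries (adjusted p = 0.0123 in edgeR, but 0.0585 in DESeq2 and 0.267 in edgeR without sibling replicate 2). Levels are CPM on TMM-scaled library sizes, not scaled for gene length, given for mutant replicates 1 and 2 and then for sibling replicates 1 and 2.

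Most skin claudin genes rose in mutants, while claudin genes of gut and those of glia and vessels each held at least 1 rise and 1 fall. In DESeq2 the falls of both lists and the 1 rise of the gut list, that of cldn15lb, were lost. The lists rest on assigned sites of expression, which were not tested here, and they were chosen with earlier results of these data known. By the quasi-likelihood test of edgeR, with p-values adjusted (Benjamini-Hochberg) over 20097 genes, 13 of the 29 claudin genes tested were higher in mutants at an adjusted p under 0.05 and 4 were lower. Over all genes tested 22.9% were higher and 21.0% were lower, 43.9% in all, against 44.8% and 13.8% of the claudin genes. All fold changes are mutant over sibling. Their median on the log2 scale was 0.34 over the claudin genes and 0.01 over all genes tested. Both mutant libraries lay above both sibling libraries in 16 of the 29 and below them in 9. Over all genes these shares were 36.6% and 35.1%. The count of rises was 12 in DESeq2 and ran from 11 to 14 when a library was left out. The count of falls was less firm, at 1 in DESeq2, that of the claudin domain gene cldnd1a. With cldnd1a and cldnd1b set aside, edgeR gave 3 falls and DESeq2 gave 0. DESeq2 called fewer genes in general, 3207 higher and 2916 lower of 21160 tested, against 4595 and 4226 of 20097 in edgeR.

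**Figure D1:**
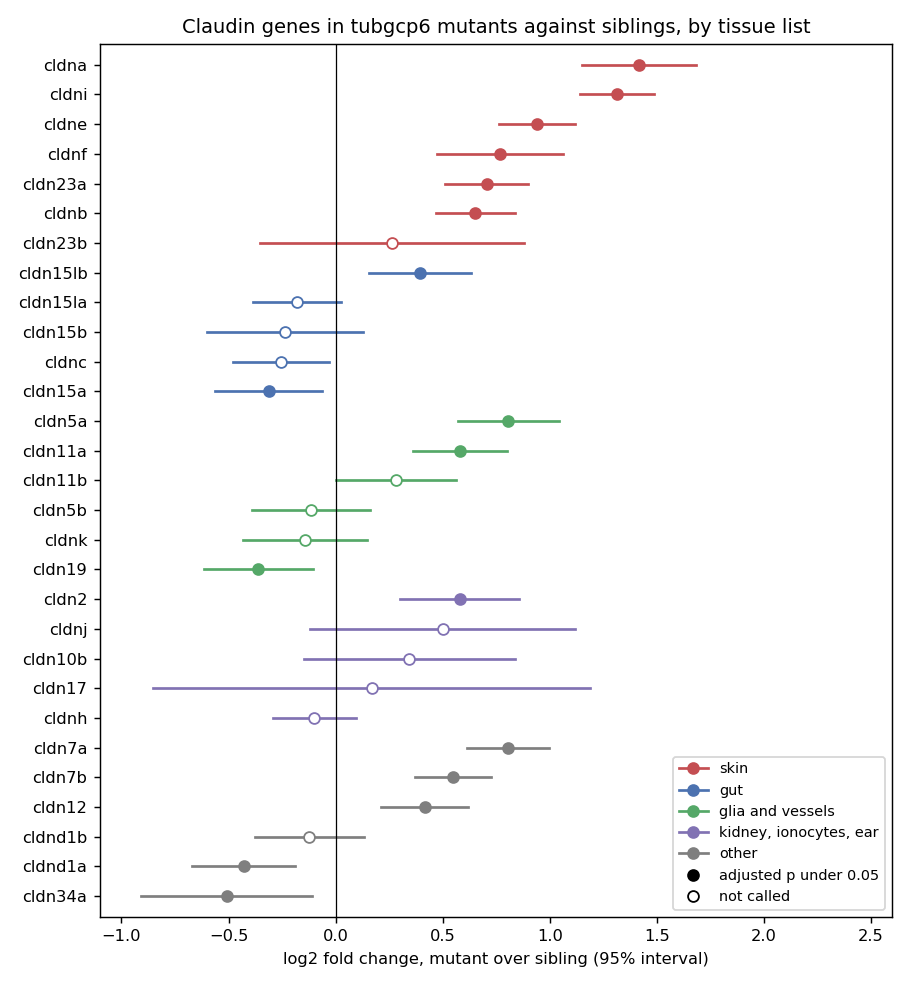
Log2 fold change (mutant over sibling, x axis) of the 29 claudin genes tested (y axis), with lines for the 95% interval from edgeR's fit, colours for the tissue list and filled points for an adjusted p under 0.05. Of the 7 skin genes at the top 6 are filled and lie right of 0, from 0.65 to 1.42, whereas the 5 gut genes lie between -0.31 and 0.39.

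The skin list held 8 genes assigned to the epidermis, of which 7 stood in the table by name. The missing gene was cldn1, which may be counted in the row named cldn19, described below. That row fell in edgeR (adjusted p = 0.0195) and is not among the 7. In the test 6 of the 7 rose (85.7%) and 0 fell, against 22.9% and 21.0% of all genes tested, leaving 1 that did not pass. The 6 that rose did so by at least 1.5-fold, which 13.4% of all genes tested did. None of these 7 had a lower level at an unadjusted p under 0.05 in edgeR (0 of 7), and DESeq2 also called 6 higher and 0 lower. The median log2 fold change of the list was 0.77. In whole animals, a change in the number of cells of a type and a change in RNA per cell cannot be told apart.

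The gene cldni, transcribed in the epidermis, drew 8466 and 8234 reads in mutants, and 2778 and 3867 in siblings. Its level was 500 and 453 CPM in mutants and 197 and 188 CPM in siblings. The mutant libraries stood clear of both sibling libraries, with a log2 fold change of 1.31 ± 0.08 (SE), or 2.48-fold, and an adjusted p of 1.07e-13 in edgeR's test. The gene cldna showed the highest fold change of the 29 claudin genes tested, from 11.5 and 11.1 CPM in siblings to 33.2 and 27.2 CPM in mutants. The groups did not overlap, and the log2 fold change was 1.42 ± 0.13, or 2.67-fold (edgeR adjusted p = 2.81e-10). These were the only claudin genes called at 2-fold or more, a size that 6.23% of all genes tested reached as rises.

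The periderm gene cldne, expressed in the outermost skin layer, read 177 and 163 CPM in mutants against 91.9 and 85.2 CPM in siblings. Both mutant values were well above both sibling values, with a log2 fold change of 0.94 ± 0.09 (edgeR adjusted p = 2.96e-10). The gene cldnf, next to cldne in the genome, read 17.8 and 16.7 CPM in mutants and 11.3 and 9.21 CPM in siblings. It rose by 0.77 ± 0.14 on the log2 scale without overlap between the groups (edgeR adjusted p = 7.18e-05). The gene cldn23a, listed in RefSeq as cldn23.1, read 71.0 and 65.5 CPM in mutants and 42.3 and 41.5 CPM in siblings, a rise of 0.71 ± 0.09 (edgeR adjusted p = 4.3e-07). The gene cldnb, whose promoter is widely used to mark the lateral line primordium and which is also expressed in skin and gill, read 234 and 201 CPM against 147 and 130 CPM. Its rise of 0.65 ± 0.09 was the smallest of the 6 (edgeR adjusted p = 7.44e-07). The 6 calls held in each setting tried, including each left-out library.

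The exception in the list was cldn23b. It had 50 and 63 counts in mutants and 56 and 36 in siblings, or 2.96 and 3.47 CPM against 3.97 and 1.75 CPM. The sibling libraries lay on either side of the mutants. The log2 fold change was 0.26, with a 95% interval of -0.35 to 0.88 and an adjusted p of 0.505 in edgeR, so that a rise as large as that of cldnf is within the interval. Without sibling replicate 2 the sign turned, at -0.30. The name cldn23b was not matched to a RefSeq gene.

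**Figure D2:**
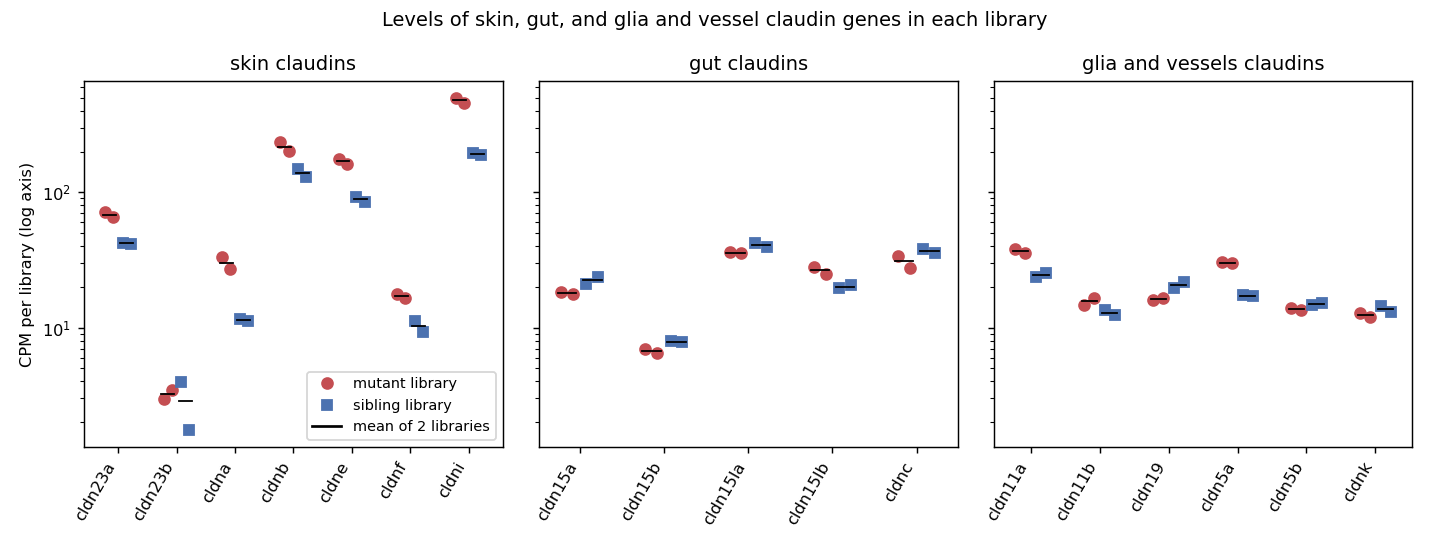
CPM (log axis, not scaled for gene length) of each skin, gut, and glia and vessel claudin gene in the 2 mutant libraries (circles) and the 2 sibling libraries (squares), with bars for group means. In the skin panel the circles sit above the squares for every gene but cldn23b, and in the gut panel they sit below them for every gene but cldn15lb.

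Of 6 tested claudin genes in none of the tissue lists, 3 rose and 2 fell, with a median of 0.15. These were 50% and 33.3%, against 22.9% and 21.0% of all genes tested. The 3 that rose were cldn7a, cldn7b and cldn12. In mammals claudin 7 lies along the sides of epithelial cells and binds the adhesion protein EpCAM. The gene cldn7a read 78.1 and 72.7 CPM in mutants and 43.4 and 42.9 CPM in siblings. This was a rise of 0.80 ± 0.09 with no overlap (log2, edgeR adjusted p = 2.87e-08). Its duplicate cldn7b read 121 and 118 CPM in mutants against 80.0 and 83.7 CPM in siblings, a rise of 0.55 ± 0.09 (edgeR adjusted p = 5.41e-06). The gene cldn12 read 43.6 and 45.7 CPM against 34.7 and 32.4 CPM and rose by 0.42 ± 0.10 (edgeR adjusted p = 0.00123). Without sibling replicate 2 it no longer passed in edgeR (adjusted p = 0.0791).

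The 5 gut claudin genes were called about as often as all genes. The test gave 1 rise and 1 fall, 20% each way against 22.9% and 21.0% of all genes tested, 3 genes missed the threshold, the median was -0.24, and DESeq2 called 0 in either direction. At an unadjusted p under 0.05 in edgeR, 1 was higher and 2 were lower. Both mutant libraries were below both siblings for 4 of the 5, as they were for 35.1% of all genes tested.

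In mammals claudin 15 forms a sodium pore of the intestine, and in zebrafish a claudin 15 gene is needed for the gut to open as a single lumen. The gene cldn15a read 18.4 and 17.8 CPM in mutants and 21.2 and 23.7 CPM in siblings. It fell by 0.31 ± 0.12 on the log2 scale (edgeR adjusted p = 0.0362). This call was lost in DESeq2 (adjusted p = 0.148), with library totals in place of TMM (0.0521), and in edgeR without mutant replicate 2 (0.0502) or either sibling library (0.0725 and 0.395).

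Its duplicate cldn15b read 6.92 and 6.50 CPM against 7.93 and 7.86 CPM, with a log2 fold change of -0.24 and an interval of -0.60 to 0.13 (edgeR adjusted p = 0.296). The enterocyte gene cldn15la, used to label the intestinal epithelium of zebrafish, read 36.3 and 35.4 CPM in mutants and 42.1 and 39.1 CPM in siblings. The mutants were lower without overlap, but the log2 fold change of -0.18 did not pass (95% interval -0.38 to 0.03, edgeR adjusted p = 0.154). The gene cldnc, named cldn3d in RefSeq, read 33.9 and 27.8 CPM against 38.0 and 35.8 CPM, a log2 fold change of -0.26 ± 0.11 just short of the threshold in edgeR (adjusted p = 0.0577). It passed with RLE scaling (0.0487), with the replicate number as a block (0.0264) and without mutant replicate 1 (0.000509, at a log2 fold change of -0.42).

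Against these, cldn15lb rose, the only gene of the gut list to do so. Its place in that list was assigned, with earlier results of these data known, and was not tested. The mixed direction of the list therefore rests on this gene. Its level was 28.0 and 25.0 CPM in mutants and 19.6 and 20.6 CPM in siblings. The log2 fold change was 0.39 ± 0.12, with no overlap (edgeR adjusted p = 0.0067). The call was lost in DESeq2 (adjusted p = 0.0569) and in edgeR without either sibling library (0.0950 and 0.0561). The paralogue cldn15la, described above, had a 95% interval that ended at 0.03, below the lower end of the interval of cldn15lb at 0.16. The difference between the genes was not tested.

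Among 6 claudin genes of glia and vessels the test gave 2 rises and 1 fall, and the list's median was 0.08. These were 33.3% and 16.7%, against 22.9% and 21.0% of all genes tested. DESeq2 called the 2 rises and 0 falls, and at an unadjusted p under 0.05 edgeR gave 3 higher and 1 lower. The gene cldn5a, placed in this list without a test, belongs to the claudin 5 genes of brain barriers. It is expressed in the neuroepithelium that lines the zebrafish brain ventricle, a site that the name of the list does not cover. It read 30.4 and 29.8 CPM in mutants against 17.3 and 17.2 CPM in siblings. The mutants were far above siblings relative to the narrow spread within each group, with a rise of 0.81 ± 0.11 on the log2 scale, or 1.75-fold (edgeR adjusted p = 1.2e-06). Its duplicate cldn5b, an endothelial gene, read 13.9 and 13.6 CPM in mutants and 14.6 and 15.1 CPM in siblings. Its log2 fold change was -0.12 with an interval of -0.39 to 0.16 (edgeR adjusted p = 0.518), and the interval of cldn5a was 0.57 to 1.04. The difference between the duplicates was not tested.

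The claudin 11 gene codes in mouse for a tight junction protein of oligodendrocyte myelin. Zebrafish cldn11a read 38.3 and 35.5 CPM in mutants and 23.7 and 25.4 CPM in siblings, a rise of 0.58 ± 0.11 with no overlap (edgeR adjusted p = 5.58e-05). Its duplicate cldn11b read 14.8 and 16.5 CPM against 13.4 and 12.4 CPM. This log2 fold change of 0.28 ± 0.14 did not pass in edgeR (adjusted p = 0.0967) but did without mutant replicate 1 (0.0421). The gene cldnk, a marker of myelinating glia in zebrafish, read 12.8 and 11.9 CPM in mutants and 14.4 and 13.0 CPM in siblings. Its log2 fold change was -0.14 with an interval of -0.43 to 0.15 (edgeR adjusted p = 0.434).

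The gene listed as cldn19 read 15.9 and 16.5 CPM in mutants and 19.6 and 21.9 CPM in siblings, and fell by 0.36 ± 0.12 on the log2 scale (edgeR adjusted p = 0.0195). The call was lost in DESeq2 (adjusted p = 0.100) and in edgeR without sibling replicate 2 (0.292). RefSeq gives cldn19 both as a symbol and as an older name of cldn1, a skin claudin gene, and the table has no row named cldn1, so which of these genes this row counts is not settled here. Read as cldn1, it would give the skin list 1 fall and leave the glia and vessel list with 0. Claudin 19 is known in mammals from Schwann cells and from the kidney.

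Of the 5 claudin genes of kidney, ionocytes and ear tested under a cldn name, cldn17 among them as cldn8.3, 1 rose and 0 fell. These were 20% and 0%, against 22.9% and 21.0% of all genes tested, and the median was 0.34. The list also holds cldn8.2, counted in the table as zgc:110333 and so no member by name, with which 2 of 6 rose (33.3%). At an unadjusted p under 0.05 edgeR also gave 1 higher and 0 lower, as did DESeq2 with adjustment. The 1 that rose was cldn2, which in mammals codes for a cation and water pore of leaky epithelia. It read 23.6 and 18.8 CPM in mutants and 13.1 and 15.0 CPM in siblings, a rise of 0.58 ± 0.14 (edgeR adjusted p = 0.000881).

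The gene cldnh read 68.9 and 58.9 CPM in mutants and 67.8 and 69.0 CPM in siblings. Mutant replicate 2 lay below the other 3 libraries, and the log2 fold change of -0.10 had an interval of -0.29 to 0.09. Without mutant replicate 2 it was 0.0075, and without mutant replicate 1 it was -0.22 (edgeR adjusted p = 0.0275). The otic gene cldnj, needed for normal otoliths in zebrafish, had 52 and 41 counts in mutants and 29 and 36 in siblings. Its log2 fold change was 0.50 with a wide interval of -0.12 to 1.12 (edgeR adjusted p = 0.184). For cldn10b, with 63 and 88 counts against 43 and 75, the log2 fold change was 0.34 (-0.15 to 0.84, edgeR adjusted p = 0.256).

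Falls outside the tissue lists were those of cldnd1a and cldn34a. The gene cldnd1a read 17.9 and 18.2 CPM in mutants and 23.9 and 24.7 CPM in siblings, and fell by 0.43 ± 0.12 (log2, edgeR adjusted p = 0.00381, or 0.0805 without sibling replicate 2). Its duplicate cldnd1b overlapped between groups, at 17.7 and 19.1 CPM against 18.7 and 21.1 CPM (log2 fold change -0.12, edgeR adjusted p = 0.443). The gene cldn34a fell by 0.51 ± 0.19 from 7.93 and 7.52 CPM in siblings to 4.55 and 6.22 CPM in mutants (edgeR adjusted p = 0.0345). That call was lost in DESeq2 (adjusted p = 0.155), with library totals (0.0513) and in edgeR without either sibling library (0.134 and 0.108) or mutant replicate 1. The log2 fold change was -0.31 without mutant replicate 1 (edgeR adjusted p = 0.23) and -0.76 without mutant replicate 2.

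The remaining members had few reads. The row cldn17, an older name of cldn8.3 in RefSeq, had 13 and 12 counts in mutants and 10 and 12 in siblings, with a log2 fold change of 0.17 and an interval of -0.85 to 1.19. The gene cldnd stood exactly at the minimum total of 20 counts, with 9 and 7 in mutants and 1 and 3 in siblings, and did not pass the filter on low counts. Its ratio of counts per scaled library was 3.96, with a 95% exact binomial interval of 1.28 to 16.3 that covers counting error only. Just below the minimum were cldng, with 18 counts in total, and cldn10a, with 14. The gene cldn18, a stomach and lung claudin in mammals, had 0 counts in each of the 4 libraries.

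The make-up of the claudin reads shifted with genotype. Summed over the 30 genes, the claudin level was 1670 and 1533 CPM in mutants and 1033 and 1001 CPM in siblings. The gene cldni alone held 30.0% and 29.6% of claudin counts in mutants against 19.1% and 18.7% in siblings. Without cldni the sums were 1169 and 1079 CPM against 836 and 813 CPM. Skin claudin genes together held 62.1% and 60.7% of claudin counts in mutants and 48.9% and 46.6% in siblings. Gut claudin genes held 7.40% and 7.34% against 12.5% and 12.7%.

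For each gut claudin read there were therefore 8.39 and 8.27 skin claudin reads in mutants and 3.92 and 3.67 in siblings. Leaving cldni out, the ratios were 4.34 and 4.24 against 2.40 and 2.19. The summed gut claudin level itself was 124 and 113 CPM in mutants and 129 and 127 CPM in siblings, a small difference beside that of the skin sum, which was 1036 and 930 CPM against 505 and 466 CPM. The glia and vessel genes summed to 126 and 124 CPM against 103 and 105 CPM. These sums are dominated by the genes with most reads and are given as a description, without a test.

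**Figure D3:**
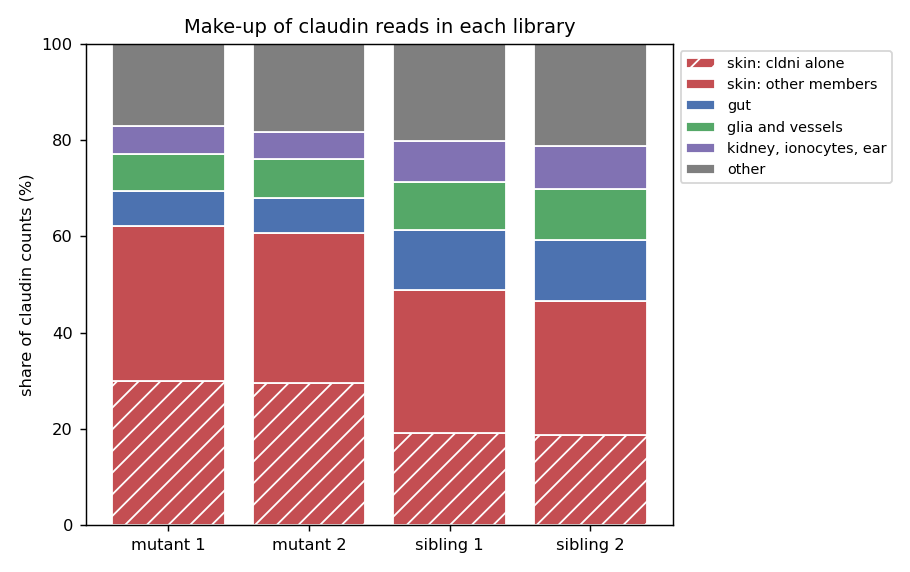
Share of the claudin counts of each library (y axis, %) held by the tissue lists, with cldni hatched within the skin list; counts are not scaled for gene length. Skin genes take 62.1% and 60.7% in the mutant libraries against 48.9% and 46.6% in the sibling libraries, and gut genes 7.40% and 7.34% against 12.5% and 12.7%.

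Markers of the tissues were counted in the same way, beside the 22.9% of all genes tested that rose and the 21.0% that fell. Of 27 epidermis markers, 18 rose and 4 fell, or 66.7% and 14.8%, with a median of 0.37. Their summed level was 23015 to 23935 CPM in mutants and 19795 to 19862 CPM in siblings. None of the 27 was at 0. The epithelial cadherin gene cdh1 rose by 1.02 ± 0.09 (log2 ± SE) and the hemidesmosome gene col17a1a by 0.91 ± 0.08, while the keratin genes krt1-19d and krt15 fell by 2.01 ± 0.09 and 0.96 ± 0.08. All 4 falls were keratin genes.

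With keratin and cytokeratin genes set aside, a division made after their values were seen, 14 of 15 epidermis markers rose, with a median of 0.78. This division took out all 4 falls, so that 0 falls was fixed in advance. Neither the share of rises, at any threshold, nor the median says anything of a match with the skin claudins. At an unadjusted p under 0.05 in edgeR 14 of these 15 were higher, and DESeq2 called 13 higher. The values for the 15, with the read ratio that follows, are given as a description. Per read of those 15 markers there were 0.450 and 0.408 skin claudin reads in mutants and 0.361 and 0.337 in siblings. Over all 27 markers, keratins included, skin claudin reads came to 4.33% and 4.04% of the marker reads against 2.55% and 2.35%. The part that the number of epidermal cells has in the rise of skin claudin genes was not tested.

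Of 24 enterocyte markers tested, 14 fell and 2 rose, or 58.3% and 8.33% against 21.0% and 22.9% of all genes (median -0.48). The summed marker level was 5870 to 6157 CPM in mutants and 6678 to 6777 CPM in siblings, and ggt1l2.2 was the only marker with 0 counts. The fatty acid binding protein genes fabp6, fabp2 and fabp1b.1 fell by 1.12 ± 0.09, 0.93 ± 0.08 and 1.11 ± 0.10, and the endocytic receptor gene cubn, which the kidney also expresses, by 1.68 ± 0.12. Gut claudin reads came to 2.10% and 1.83% of enterocyte marker reads in mutants and 1.90% in both sibling libraries, so that this ratio overlapped between groups. The marker reads are dominated by a few genes. Among these are apobb.1, not called in edgeR (means of 2045 CPM in mutants and 1800 CPM in siblings), and chia.2, which fell (1017 and 1299 CPM). The part of gut cell number in the gut claudin values was not tested.

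Of 19 oligodendrocyte and Schwann cell markers, 2 rose and 6 fell, or 10.5% and 31.6% against 22.9% and 21.0% of all genes. The median was -0.21, with sums of 525 to 534 CPM in mutants and 558 to 589 CPM in siblings. The myelin genes mag, mpz and tspan2a fell by 0.98 ± 0.12, 0.71 ± 0.13 and 0.40 ± 0.09, and the myelin enzyme gene cnp rose by 0.40 ± 0.09. Of 21 endothelium markers, 9 rose and 0 fell, or 42.9% and 0% (median 0.32). There was 1 lower at an unadjusted p under 0.05 in edgeR, and 7 higher and 0 lower in DESeq2. Their sums were 511 to 522 CPM against 385 to 387 CPM.

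The scavenger receptor genes stab2 and stab1 rose by 1.89 ± 0.12 and 0.93 ± 0.10, the transporter gene slc16a1a by 0.85 ± 0.12 and the transcription factor gene fli1a by 0.55 ± 0.11. Of 18 neuron markers 1 rose and 7 fell, or 5.56% and 38.9% against 22.9% and 21.0% of all genes. The median was -0.11, with sums of 2258 to 2262 CPM in mutants and 2550 to 2674 CPM in siblings. Among these markers were elavl3 at -0.64 ± 0.09, snap25b at -0.57 ± 0.09, syt1a at -0.41 ± 0.08 and slc17a6a at -0.47 ± 0.12. No marker of these 3 lists was at 0. Whether cell numbers had a part in the changes of cldn5a, cldn11a and cldn19 was not tested.

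Kidney, ionocyte and ear markers held both rises and falls, and none was at 0. Over all genes tested 22.9% rose and 21.0% fell. Of 18 pronephros markers 3 rose and 3 fell, 16.7% each way. Their median was 0.03, with sums of 618 to 650 CPM in mutants and 695 to 717 CPM in siblings. The scaffold gene pdzk1 was at -1.07 ± 0.09, the transporter gene slc22a2 at -0.46 ± 0.09 and the sialomucin gene podxl at 0.30 ± 0.09. Of 15 ionocyte markers 5 rose and 4 fell, or 33.3% and 26.7% (median -0.07, sums of 1057 to 1104 CPM against 1282 to 1309 CPM). Carbonic anhydrase gene ca2 was at 0.72 ± 0.10, sodium pump gene atp1a1a.4 at -0.54 ± 0.08, sodium exchanger gene slc9a3.2 at 1.36 ± 0.22 and chloride channel gene cftr at 1.02 ± 0.18. Of 13 inner ear markers tested 3 rose and 4 fell, or 23.1% and 30.8% (median 0.16, sums of 432 to 454 CPM against 357 to 366 CPM). The otolith genes stm, oc90 and otomp were at 0.65 ± 0.08, 2.40 ± 0.31 and 0.60 ± 0.10, and the hair cell myosin gene myo7aa at -0.65 ± 0.12.

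**Figure D4:**
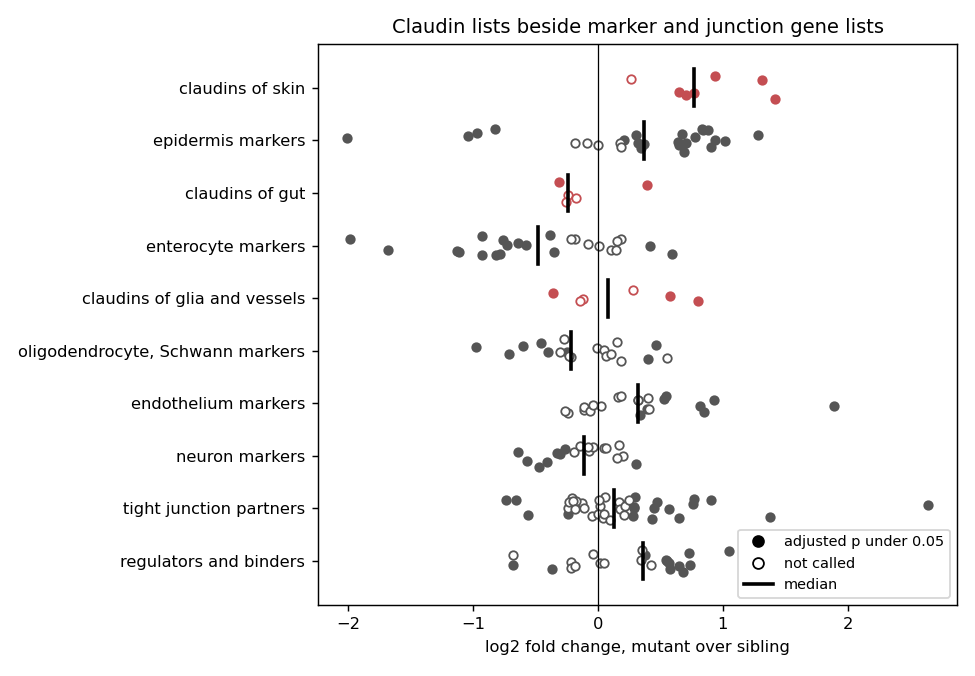
Log2 fold change (mutant over sibling, x axis) of each tested gene in the claudin lists (red) and in lists of markers, junction partners and regulators (grey), filled where the adjusted p was under 0.05, with bars for medians; points are spread vertically for visibility. Medians are 0.77 for skin claudins and 0.37 for epidermis markers, and -0.24 for gut claudins and -0.48 for enterocyte markers.

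Claudins work with other proteins of the junction, and genes of these moved both ways. The test gave 14 rises and 4 falls among 40 partner genes, or 35% and 10% against 22.9% and 21.0% of all genes tested, beside a median of 0.13. The occludin gene oclna rose by 0.57 ± 0.09 (SE, log2). Sibling libraries averaged 62.0 ± 0.634 CPM of it, and mutant ones 92.1 ± 5.21 CPM (SD, n = 2 per group). The gene marveld1, of a MARVEL domain protein, rose by 1.37 ± 0.18 and lsr, of an angulin protein at corners where 3 cells meet, by 0.77 ± 0.10. The junctional adhesion genes f11r.1 and f11r.2 rose by 0.65 ± 0.09 and 2.65 ± 0.43, the latter from 8 and 6 counts in siblings to 42 and 48 in mutants. The polarity gene pard6gb rose by 0.77 ± 0.14.

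The 4 partner genes that fell were the scaffold gene magi1a (-0.65 ± 0.10), the junctional adhesion gene jam2a (-0.73 ± 0.17), the polarity gene crb1 (-0.56 ± 0.17) and tjp2b (-0.24 ± 0.09), which codes for a ZO-2 scaffold protein. The ZO scaffold proteins hold claudins at the junction, and their genes were chosen here with their values known. Besides tjp2b, which fell, tjp2a rose by 0.29 ± 0.09 (edgeR adjusted p = 0.0129). The other ZO genes were not called: tjp1a was at -0.21 ± 0.09, tjp1b at -0.12 ± 0.09 and tjp3 at -0.05 ± 0.10 (edgeR adjusted p = 0.0577, 0.285 and 0.719). The number of partner genes that rose was 10 in DESeq2 and 8 without sibling replicate 2.

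Among 22 genes of known regulators and binders of claudins there were 10 rises and 2 falls, or 45.5% and 9.09% against the same shares of all genes, and the median was 0.36. Grainyhead-like transcription factors control barrier genes of surface epithelia, and grhl3 rose by 1.05 ± 0.16 and grhl1 by 0.55 ± 0.10. For grhl3 the sibling mean was 7.69 ± 0.161 CPM, and the mutant mean 16.0 ± 2.43 CPM (SD, n = 2 per group). The gene epcam, of the adhesion protein that binds claudin 7 in mammals, rose by 0.57 ± 0.08, beside 0.55 for cldn7b and 0.80 for cldn7a. The membrane protease gene st14a, which codes for a matriptase, rose by 0.73 ± 0.09, and the genes of its inhibitors spint1a and spint1b by 0.55 ± 0.09 and 0.68 ± 0.10. The 2 that fell were the caudal-type homeobox gene cdx1a (-0.68 ± 0.17) and hnf4a (-0.37 ± 0.11), of a transcription factor of liver and gut.

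Some claudin genes lie side by side in the genome, which allows neighbours to be compared. Gene order and overlaps were taken from the RefSeq annotation of the assembly GRCz12tu, whereas the counts were made on GRCz11. In it cldnj, cldne, cldnf and cldna follow each other with no other protein-coding gene between them. All 4 had both mutant libraries above both siblings, as had 36.6% of all genes tested. Of the 4, 3 passed the test as rises, as did 22.9% of all genes tested, with log2 fold changes from 0.77 to 1.42. They were cldne, cldnf and cldna, whose rises are those already counted in the skin list. A second run holds cldnh, cldnc and cldnb in that order, followed by genes that the table lists as zgc:112437 (cldn29 in RefSeq) and, beyond cldnd and cldn28, zgc:136892 (cldn30). The gene cldnd had too few counts to be tested, and cldn28 was not analysed here. Here only cldnb, also counted in the skin list, was called, at 0.65. Its neighbours were at -0.10 for cldnh, -0.26 for cldnc, 0.12 ± 0.16 for zgc:112437 and 0.24 ± 0.16 for zgc:136892.

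The interval of cldnb, 0.47 to 0.84, lay above those of cldnh (-0.29 to 0.09) and cldnc (-0.48 to -0.03), and the differences between neighbours were not tested. The gene zgc:110333 (cldn8.2), of the kidney, ionocyte and ear list, has a span that overlaps that of cldn17 and read 45.1 and 37.2 CPM in mutants against 28.1 and 26.4 CPM in siblings, a rise of 0.60 ± 0.11 (edgeR adjusted p = 5.74e-05). In that annotation 7 of the 29 claudin genes matched overlap another protein-coding gene, cldni, cldn7b, cldn12, cldn2, cldn15b, cldn10b and cldn17. Their counts may include reads of the other gene, since the strand setting is not given. Whether these overlaps exist in the annotation that was counted is not known.

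**Figure D5:**
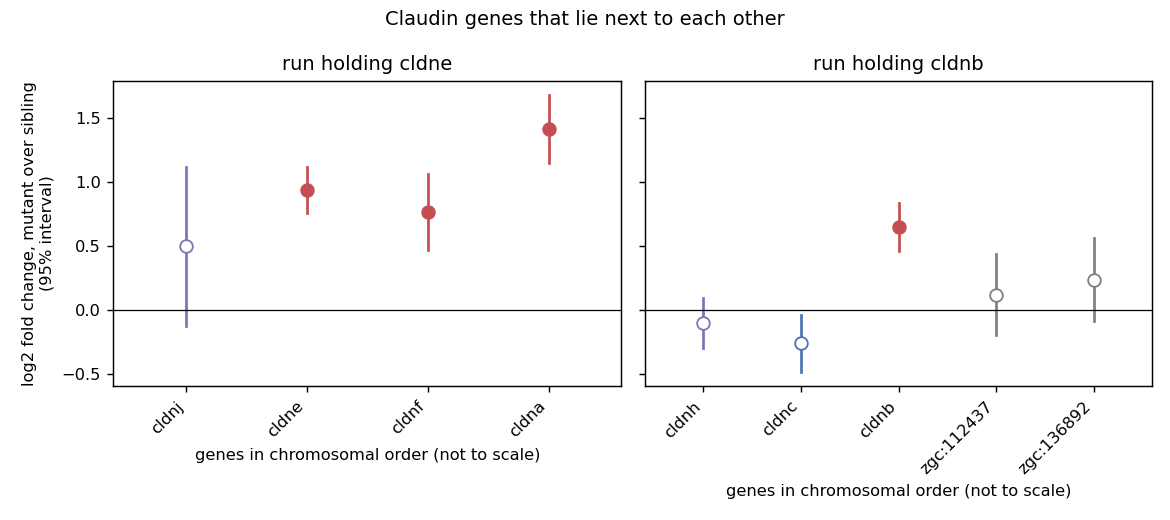
Log2 fold change with its 95% interval (y axis) of claudin genes that follow each other in the genome (x axis, in order, not to scale, with cldnd and cldn28 left out before zgc:136892), coloured by tissue list as red for skin, blue for gut, purple for kidney and ear, and grey for none; filled points passed an adjusted p of 0.05. In the left run 3 of 4 genes are filled, up to 1.42 for cldna, and in the right run only cldnb is, at 0.65.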

How the data were processed

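The deposited table holds unnormalised counts for 4 libraries, as whole reads per gene. Its making involved the build GRCz11, STAR 2.7.10a, fastp 0.23.2, DESeq2 1.26.0, featureCounts 2.0.1 and R 4.2.2, per the submitters' processing notes, which state no roles. The annotation, the strand setting and how reads with several matches were handled were not given in the sources used here, so similar claudin copies carry an uncertain split of reads.

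Groups and replicate numbers came from the labels. Counts were fitted in R 4.3.3 with edgeR 4.0.16 (filterByExpr, which removed 3139 rows, TMM scaling, glmQLFit, glmQLFTest) and p-values were adjusted by Benjamini-Hochberg over the 20097 genes tested. An SE is the size of a log2 fold change over the root of its F statistic. The biological coefficient of variation was 7.19%. The chi-square per degree of freedom was 5.78 between mutant and 2.78 between sibling libraries, so within a group neither library was a copy of the other. Pairs across the groups were not checked in this way. DESeq2 1.42.0, other scalings and filters, a replicate block and leaving out each library were alternatives, and the test was tested on simulated counts. Names were matched to RefSeq (25 claudin genes by symbol, 4 by synonym). Of 264 entries in the lists, 245 stood in the table, 3 of them by synonym.

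The members and lists were chosen with earlier results of these data known. Values per library are given for the skin, gut, and glia and vessel claudin genes and the other called ones. Of partner and regulator lists up to 6 called genes each way, and of marker lists up to 4 genes, of smallest p are named; exceptions are stated. One marker gene that the rule would name is not reported here. No sequences were used here.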

Additional observations from a re-analysis of the deposited data

How the results depend on the processing

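The 6 rises of skin claudin genes and the rises of cldn7a, cldn7b, cldn2, cldn5a and cldn11a held in each setting run. The other counts of small lists depended on single genes near the threshold, and the cause of each change was not tested. With library totals in place of TMM, 2 claudin genes and 0 gut claudin genes were lower. With RLE scaling, and with the replicate block, 2 gut claudin genes were lower. The block otherwise gave 13 claudin genes higher and 5 lower, and 4828 and 4521 of all genes. The correlation of same-numbered deviations was 0.0369, and as the labels tie the numbers to nothing shared, they are not taken to pair the libraries. In DESeq2 the gut list had 0 higher and 0 lower, the glia and vessel list had 0 lower, the claudin genes had 1 lower and the partner genes had 2 lower.

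Leaving out each library in turn gave 2977 to 4840 genes higher and 2425 to 4680 lower over all genes, with the lowest counts without sibling replicate 2. The claudin genes ranged from 11 to 14 higher and 0 to 5 lower, the skin list stayed at 6 and 0, the gut list ranged from 0 to 1 higher and 0 to 2 lower, the glia and vessel list from 2 to 3 higher and 0 to 1 lower, and the partner genes from 8 to 15 higher and 2 to 8 lower. The sign turned for 2 genes when a library was left out, neither called in that setting: cldn23b ranged from -0.30 (without sibling replicate 2) to 0.88, and cldnh from -0.22 to 0.0075 (without mutant replicate 2). Medians of the claudin and partner lists, whose recomputation was added after seeing the data, kept their sign in each setting. With no filter on low counts cldnd was tested and not called in edgeR (log2 fold change 1.92, adjusted p = 0.0718), nor in DESeq2 (0.276). Depth limits cldn17, cldnd, cldn23b, cldnj and cldn10b, which had the fewest reads of the members.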
